A study of Homo sapiens with 6 samples.

Results

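Receptor tyrosine kinases are cell-surface receptors that dimerize when they bind a growth factor and phosphorylate each other on tyrosine, which recruits adaptors and starts the RAS-ERK and PI3K-AKT cascades. In breast cancer ERBB2 (HER2) defines a clinical class of its own, whereas triple-negative breast cancers lack ERBB2 amplification and the estrogen and progesterone receptors, and their mesenchymal lines are known for EGFR and AXL. The transcripts of 10 of these receptors were examined here after silencing of IRF1, which encodes an interferon (IFN) regulatory transcription factor: EGFR, ERBB2, ERBB3, MET, AXL, PDGFRA, PDGFRB, FGFR1, IGF1R and KIT. They were chosen by gene symbol, with earlier results of these data known, and each of the 10 symbols was found among the 37887 listed.

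RNA-seq was performed on BT-549, an established line from a human triple-negative breast cancer, in 3 control and 3 IRF1shRNA samples. The labels give DMSO as the treatment of the control samples and doxycycline, which switches on the short hairpin RNA against IRF1, as that of the IRF1shRNA samples, at 0.1% and 500 ng/ml in the series description. That description has 1 transduced line under both treatments, whereas the control titles name a control shRNA, which would make the groups separately transduced populations. The study's qRT-PCR of IRF1 silencing likewise names control shRNA cells and IRF1shRNA cells. It does not say whether the RNA-seq libraries came from those cells. By the treatment labels doxycycline went only to the IRF1shRNA samples, so that its effects and those of the hairpin cannot be told apart, and if the titles hold, neither can differences between the populations. The study's methods describe cells selected in puromycin after transduction and a culture medium with fetal serum and added insulin, a ligand of receptors of the IGF1R family. The labels do not give the duration of treatment, and they do not say whether the triplicates came from separate experiments. For RNA-seq the study names cells cultured in triplicate. The p-values thus measure the spread between these samples, which may be that of parallel cultures or technical. In bulk RNA, fewer cells of a type and less RNA per cell cannot be told apart.

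Total counts ranged from 55143808, in IRF1shRNA replicate 2, to 160436234. Values are given as CPM, the counts of a gene relative to its library total, after TMM scaling, which allows for differences in composition between libraries, and 3 counts equal 0.0182 to 0.0540 CPM depending on the library. Of 6 mesenchymal markers, none was under 1 CPM, and they summed to 2042 to 2151 CPM in control and 1594 to 1685 CPM in IRF1shRNA samples. Of 9 luminal markers 8 had a mean under 1 CPM over the 6 libraries, and ESR1, the estrogen receptor, was at 0 to 0.144 CPM over the 6 libraries. The 7 leukocyte and endothelial markers summed to at most 0.973 CPM in any library.

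IRF1 was examined first. Its 3 control libraries held 45.3, 48.1 and 51.5 CPM, and its 3 IRF1shRNA libraries 13.8, 14.9 and 14.6 CPM. The groups were far apart. IRF1shRNA samples thus held 29.9% of the control mean, with a log2 fold change of −1.74 ± 0.06 (SE) and an edgeR adjusted p of 4.53e-13.

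Of the 10 receptors, 5 fell after IRF1 silencing (PDGFRA, ERBB2, FGFR1, IGF1R and MET), 0 rose, 4 did not pass the test (EGFR, AXL, ERBB3 and PDGFRB) and 1 was not tested (KIT). A gene was said to rise or fall at an adjusted p under 0.05 in the quasi-likelihood test of edgeR, adjusted (Benjamini-Hochberg) across 18851 genes left by a filter on low counts. In that test 50.5% of all genes passed, with 26.4% falling and 24.1% rising. These shares include scarce genes, and a larger share passed among genes with at least 1 CPM in at least 3 samples. Of those 13204 genes, 4273 fell and 4296 rose. No receptor rose at an unadjusted p under 0.05 either (0 genes), nor in DESeq2 (0 genes). Only PDGFRA fell by more than 2-fold, which 4.43% of all genes did, while 3.43% rose by as much. For 7 of the receptors every control library lay on one side of every IRF1shRNA library, beside 56.8% of all genes tested. The median log2 fold change of the 9 tested receptors was −0.23, beside −0.0024 for all genes tested.

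**Figure D1:**
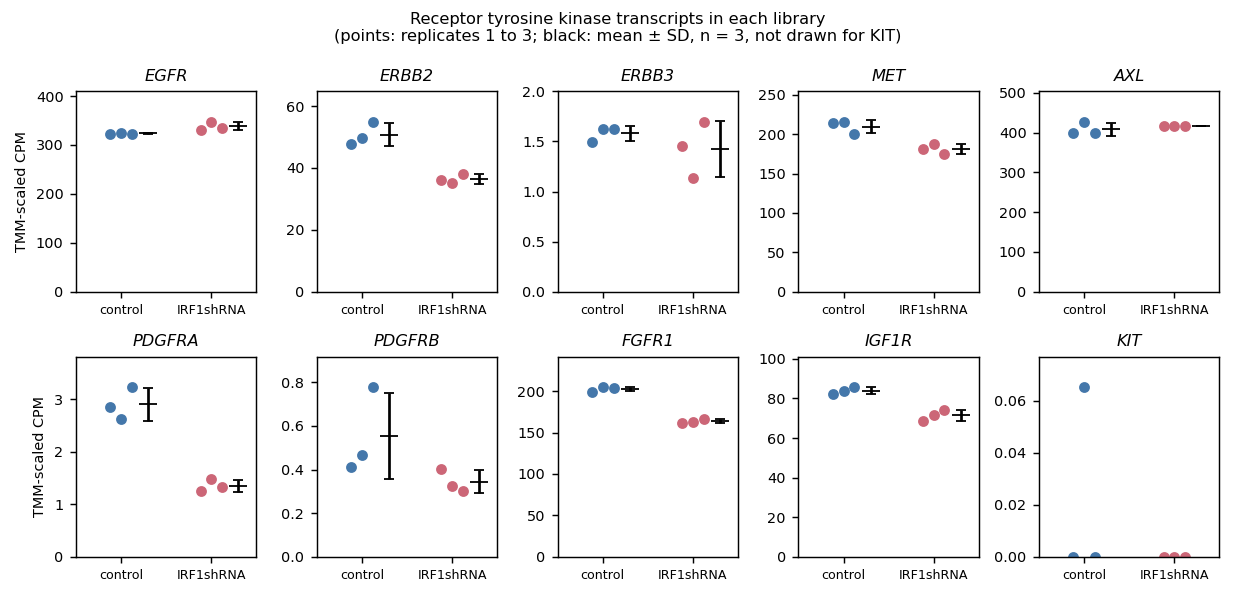
TMM-scaled CPM of the 10 receptors in each library, from 0 on each vertical axis, with points for replicates 1 to 3 of the control (blue) and IRF1shRNA (red) groups and black bars for the mean ± SD (n = 3). The groups separated for ERBB2, MET, PDGFRA, FGFR1 and IGF1R, were close for EGFR and overlapped for AXL and ERBB3, and KIT had reads in a single control library.

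The ERBB family was represented by 3 receptors. EGFR, the receptor for EGF, TGFA and HBEGF, was at 323, 324 and 323 CPM in control and at 331, 347 and 335 CPM in IRF1shRNA samples. Every IRF1shRNA library was above every control library, but by little. The log2 fold change came to 0.06 ± 0.04 (SE), with a 95% interval of −0.02 to 0.15 and an edgeR adjusted p of 0.215. EGFR passed the threshold upward when libraries were scaled by their size only (log2 fold change 0.11, edgeR adjusted p of 0.0175), a scaling that moved the median of all genes to 0.049.

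ERBB2 has no known ligand of its own and acts as the preferred dimerization partner of the other ERBB receptors. It was at 47.7, 49.7 and 54.8 CPM in control and at 36.0, 35.0 and 38.1 CPM in IRF1shRNA samples. The groups did not overlap, and the IRF1shRNA mean was 71.6% of the control mean. The mean went from 50.8 ± 3.67 CPM to 36.4 ± 1.60 CPM (mean ± SD, n = 3 per group), a log2 fold change of −0.48 ± 0.06 (SE) with an edgeR adjusted p of 1.47e-06. In GENCODE release 29 the exons of ERBB2 share 571 bases, or 5.53% of their merged length, with MIEN1 on the opposite strand. Whether counting used strand is not given in the sources used here.

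ERBB3 binds neuregulins, has very weak kinase activity and signals mainly through ERBB2. It was scarce, at 1.49, 1.62 and 1.63 CPM in control and at 1.45, 1.14 and 1.70 CPM in IRF1shRNA samples. The groups overlapped, and the lowest and the highest of the 6 values were both in the IRF1shRNA group. Its log2 fold change of −0.12 ± 0.15 (SE) had a 95% interval of −0.44 to 0.21 and an edgeR adjusted p of 0.572. The value rested on single libraries, since it was −0.00042 without IRF1shRNA replicate 2 and −0.26 without IRF1shRNA replicate 3.

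Within each library, the ratio of a pair of receptor counts is free of the scaling between libraries. ERBB2 had 14.8, 15.3 and 17.0 counts per 100 EGFR counts in control and 10.9, 10.1 and 11.4 in IRF1shRNA samples. The difference of the mean log2 ratios, IRF1shRNA minus control, was −0.54, with an exact two-sided permutation p of 0.1, the smallest that 3 against 3 samples allow. This was among 6 such ratios, chosen after the values were seen, and each had the same exact permutation p of 0.1, also after adjustment over the 6. MET per MST1R was the only one of these ratios that was higher in IRF1shRNA samples. It was 3287, 3152 and 2592 counts per 100 MST1R counts in control and 14437, 9318 and 8273 in IRF1shRNA samples, a log2 difference of 1.79. The log2 differences of AXL per TYRO3, FGFR1 per FGFR2 and PDGFRA per EGFR were −0.27, −0.30 and −1.16.

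MET is the receptor of hepatocyte growth factor (HGF), which stimulates cell motility. MET was at 214, 216 and 199.7 CPM in control and at 181, 188 and 175 CPM in IRF1shRNA samples. The lowest control library was above the highest IRF1shRNA library, and the IRF1shRNA mean was 86.5% of the control mean. The log2 fold change came to −0.21 ± 0.04 (SE), with a 95% interval of −0.30 to −0.11 and an edgeR adjusted p of 7.86e-04.

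AXL, a receptor of the TAM family that binds GAS6 and is linked to the mesenchymal state, was at 399, 427 and 399 CPM in control and at 417, 416 and 418 CPM in IRF1shRNA samples. The IRF1shRNA values lay within the range of the control values. The log2 fold change came to 0.03 ± 0.04 (SE), with a 95% interval of −0.06 to 0.12 and an edgeR adjusted p of 0.607.

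PDGFRA and PDGFRB, the receptors of the platelet-derived growth factors, are best known from mesenchymal and stromal cells. PDGFRA was at 2.85, 2.63 and 3.23 CPM in control and at 1.25, 1.48 and 1.33 CPM in IRF1shRNA samples. Each IRF1shRNA library was below each control library, and the mean fell from 2.90 ± 0.306 CPM to 1.35 ± 0.113 CPM (mean ± SD, n = 3 per group), which left 46.6%. The log2 fold change came to −1.12 ± 0.13 (SE), with a 95% interval of −1.39 to −0.84 and an edgeR adjusted p of 1.22e-06. In GENCODE release 29 the exons of PDGFRA share 1533 bases, or 15.8% of their merged length, with a read-through gene on the same strand, which is not among the symbols listed in the counts.

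PDGFRB was the scarcest of the tested receptors, with 51, 57 and 116 counts in control and 51, 18 and 50 counts in IRF1shRNA samples. These counts correspond to 0.414, 0.465 and 0.778 CPM and to 0.405, 0.324 and 0.304 CPM. The groups did not overlap, but control replicate 3 stood well above the other controls. The log2 fold change of −0.69 ± 0.29 (SE) did not pass the threshold (95% interval −1.30 to −0.07, edgeR adjusted p of 0.0586). Without control replicate 3 it was −0.34 with an edgeR adjusted p of 0.404, whereas without control replicate 1 it was −0.86 with an edgeR adjusted p of 0.0293. Over the alternatives run, the adjusted p of PDGFRB in edgeR and DESeq2 ranged from 0.0287 to 0.404.

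KIT, the receptor of stem cell factor, belongs to the same structural class as the PDGF receptors. It had 8 counts in control replicate 2, or 0.0653 CPM, and 0 counts in the other 5 libraries. For a count of 0, 3 counts were taken as the upper limit, or 0.0182 to 0.0540 CPM depending on the library. That limit would be higher if both mates of a pair were counted. KIT was not tested and is given no fold change.

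FGFR1, a receptor for fibroblast growth factors, was at 199.5, 205 and 204 CPM in control and at 162, 162 and 166 CPM in IRF1shRNA samples. Replicates lay close together and the groups were well apart, with an IRF1shRNA mean of 80.7% of control. The mean fell from 203 ± 2.82 CPM to 164 ± 2.34 CPM (mean ± SD, n = 3 per group), a log2 fold change of −0.31 ± 0.04 (SE) with an edgeR adjusted p of 4.35e-06.

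IGF1R, the receptor of the insulin-like growth factors, was at 82.1, 83.6 and 85.7 CPM in control and at 68.6, 71.5 and 74.1 CPM in IRF1shRNA samples. The groups did not overlap, and the IRF1shRNA mean was 85.2% of control. The log2 fold change came to −0.23 ± 0.04 (SE) at an edgeR adjusted p of 2.39e-04. The insulin receptor INSR, which forms hybrid receptors with IGF1R and was named after its values were seen, went the other way, from 42.6 ± 0.909 CPM to 57.0 ± 1.64 CPM (mean ± SD, n = 3 per group), a log2 fold change of 0.42 ± 0.04 (SE) with an edgeR adjusted p of 4.05e-07. For every 100 INSR counts there were 193, 201 and 197 IGF1R counts in control and 122, 121 and 133 in IRF1shRNA samples. The groups did not overlap in this ratio, whose log2 difference was −0.65 with the exact permutation p of 0.1 given above.

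**Figure D2:**
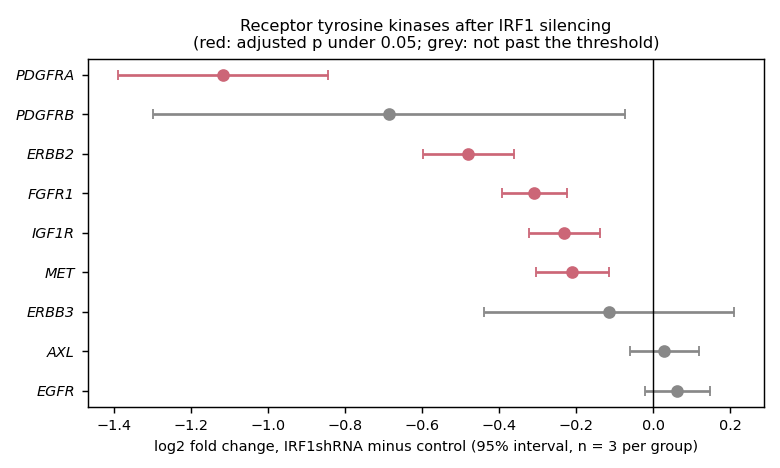
Log2 fold change of the 9 tested receptors, IRF1shRNA minus control, with 95% intervals from the edgeR fit (n = 3 per group), in red where the adjusted p was under 0.05 and in grey otherwise. PDGFRA was lowest at −1.12, the wide interval of PDGFRB ran from −1.30 to −0.07, and the intervals of ERBB3, AXL and EGFR crossed 0.

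Levels of different receptors were compared per length, as TMM-scaled CPM per kilobase of merged GENCODE exons. In control samples AXL was highest at 79.3 ± 3.12, followed by MET at 29.8 ± 1.23, EGFR at 25.8 ± 0.0608 and FGFR1 at 14.6 ± 0.204 CPM per kilobase (SD, n = 3 each). IGF1R at 6.01 ± 0.130 and ERBB2 at 4.92 ± 0.355 CPM per kilobase came next. PDGFRA at 0.298 ± 0.0315, ERBB3 at 0.175 ± 0.00856 and PDGFRB at 0.0774 ± 0.0276 CPM per kilobase formed a low group, with KIT below them. No neighbours in this order overlapped among the control libraries. In IRF1shRNA samples the mean of EGFR, 27.0 ± 0.650 CPM per kilobase, was above that of MET, 25.8 ± 0.931, and the mean of ERBB3 was above that of PDGFRA, but the libraries of both pairs overlapped. The middle of the order depended on the gene length used, since with the longest transcript in place of merged exons the control order was AXL, EGFR, FGFR1, MET, ERBB2 and IGF1R.

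**Figure D3:**
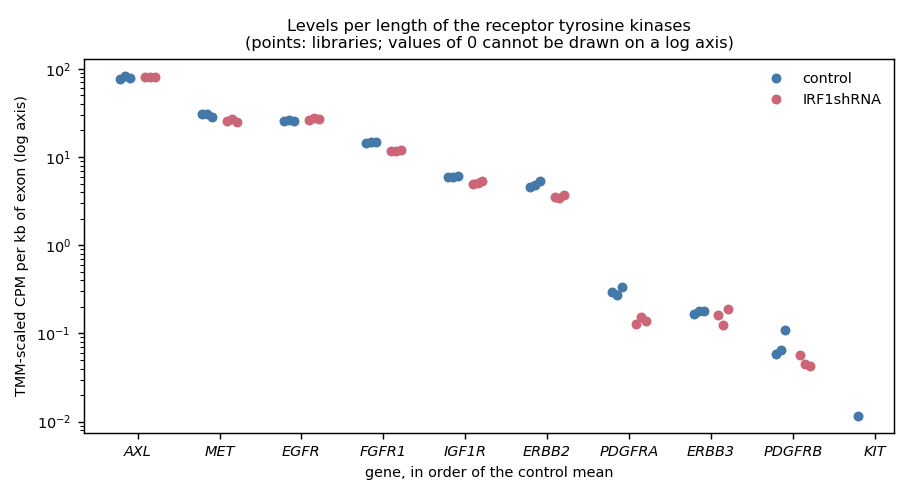
TMM-scaled CPM per kilobase of merged exon on a log axis for the 10 receptors, in order of their control mean, with a point for each control (blue) and IRF1shRNA (red) library. AXL, MET, EGFR, FGFR1, IGF1R and ERBB2 were above 1 CPM per kilobase and PDGFRA, ERBB3, PDGFRB and KIT below it, and for KIT the libraries at 0 cannot be drawn.

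Promoter sequence was available for 8 of the 10 receptors in RefSeq (GRCh38.p14), with 11 windows of 250 bases before to 50 bases after a transcript start. The windows were searched on both strands for GAAA, any 2 bases and GAAA, the core of the IFN-stimulated response element that IRF family factors bind. It was found in 3.57% of all 35116 promoter windows. Among the receptors it matched in PDGFRB and in the downstream promoter of AXL. ERBB3 and FGFR1 had no window. The sequences are shown for these matches and for a promoter of PDGFRA, the receptor that changed most, which does not hold the motif. Each is the 250 bases before the start, 5′ to 3′ on the gene's strand, with the matched letters in capitals.
PDGFRB, chr5:150155846-150156095, minus strand, with 27 bases in the first exon of GENCODE: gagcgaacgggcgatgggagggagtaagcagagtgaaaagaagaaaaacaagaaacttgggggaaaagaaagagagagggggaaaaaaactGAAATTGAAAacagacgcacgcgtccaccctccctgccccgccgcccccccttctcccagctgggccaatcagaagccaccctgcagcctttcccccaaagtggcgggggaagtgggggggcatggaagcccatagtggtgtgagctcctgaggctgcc
AXL, downstream promoter, chr19:41226505-41226754, plus strand, inside an AXL intron: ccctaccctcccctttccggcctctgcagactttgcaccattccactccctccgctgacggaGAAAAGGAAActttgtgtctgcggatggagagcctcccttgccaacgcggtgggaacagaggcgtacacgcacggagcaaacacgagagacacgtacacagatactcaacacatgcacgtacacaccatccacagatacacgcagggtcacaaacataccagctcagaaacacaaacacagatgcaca
PDGFRA, downstream promoter, chr4:54233710-54233959, plus strand, inside a PDGFRA intron: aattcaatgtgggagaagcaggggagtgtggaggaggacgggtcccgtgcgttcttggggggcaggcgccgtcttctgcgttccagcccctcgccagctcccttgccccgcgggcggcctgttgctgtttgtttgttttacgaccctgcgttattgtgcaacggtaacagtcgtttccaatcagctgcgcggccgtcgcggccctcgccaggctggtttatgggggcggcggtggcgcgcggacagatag
The match began 159 bases before the start in PDGFRB and 188 bases before it in AXL (positions −159 and −188). Neither of these receptors passed the test, and none of the 4 receptors with a promoter window that fell (PDGFRA, ERBB2, IGF1R and MET) held the motif there. A match or its absence describes these letters only, within windows where the motif is rare in any case (3.57% of all). Whether IRF1 acts on these genes was not tested.

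The ligands of the receptors and of their close relatives were examined next. Of 30 ligand genes, 9 fell, 2 rose, 10 did not pass the test and 9 were not tested, where 26.4% of all genes tested fell and 24.1% rose. The median log2 fold change of the tested ligands was −0.37. All 3 FGF ligands above 1 CPM fell, as did FGFR1. FGF2, the basic fibroblast growth factor, went from 197, 184 and 175 CPM to 125, 122 and 122 CPM, with a log2 fold change of −0.59 ± 0.05 (SE) and an edgeR adjusted p of 1.11e-08. FGF5 and FGF1 had log2 fold changes of −0.69 and −0.57, and their groups did not overlap.

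KITLG, the stem cell factor that binds KIT, fell from 31.1, 28.7 and 27.4 CPM to 13.7, 14.4 and 13.6 CPM, although its receptor was near 0 in the same libraries. Its log2 fold change came to −1.07 ± 0.07 (SE) at an edgeR adjusted p of 4.56e-10. The ligands of the TAM family, to which AXL belongs, moved apart. GAS6 fell to 83.9 CPM from a control mean of 109 CPM (log2 fold change −0.37 ± 0.04, SE), whereas PROS1, the related protein S of the coagulation system, went from 15.3 ± 0.361 CPM to 19.6 ± 2.08 CPM (log2 fold change 0.35 ± 0.07, SE). The edgeR adjusted p was 1.18e-06 for GAS6 and 8.38e-04 for PROS1.

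Of the PDGF ligands, PDGFB fell from 2.24 ± 0.0761 CPM to 1.15 ± 0.213 CPM (mean ± SD, n = 3 per group), with a log2 fold change of −0.93 ± 0.15 (SE) and an edgeR adjusted p of 3.74e-05. PDGFD fell as well, with a log2 fold change of −0.48 ± 0.08 (SE) and an edgeR adjusted p of 1.16e-04. PDGFA rose from 1.15 ± 0.157 CPM to 1.62 ± 0.270 CPM (log2 fold change 0.49 ± 0.17, SE, edgeR adjusted p of 0.0217). The PDGFA call rested on single libraries, since it was lost without control replicate 2 (edgeR adjusted p of 0.0649), without control replicate 3 (0.0796) and without IRF1shRNA replicate 1 (0.138), and without each of control replicate 2 and IRF1shRNA replicate 1 only 1 ligand rose. PDGFC had a log2 fold change of −0.10 with an edgeR adjusted p of 0.104.

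Among the ERBB ligands, AREG (amphiregulin), which binds EGFR and was named after its values were seen, was the one that fell. It was scarce, at 0.341, 0.302 and 0.322 CPM in control and 0.159, 0.0721 and 0.134 CPM in IRF1shRNA samples. The groups did not overlap, and the log2 fold change of −1.31 ± 0.36 (SE) had an edgeR adjusted p of 0.00614. NRG1, which binds ERBB3, was at 157 ± 8.87 CPM in control against 146 ± 2.93 CPM in IRF1shRNA samples, with overlapping groups and an edgeR adjusted p of 0.0576. It passed the threshold without control replicate 3, at a log2 fold change of −0.15 and an edgeR adjusted p of 0.00588. HBEGF, a ligand of EGFR, was at 9.81 ± 0.613 CPM in control against 10.5 ± 0.205 CPM in IRF1shRNA samples, with an edgeR adjusted p of 0.246. HGF, IGF1 and IGF2, named after their values were seen, were each under 1 CPM in every library.

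The genes named as IGF-binding proteins encode secreted proteins, several of which hold insulin-like growth factors away from IGF1R. Of 7, 4 fell, 0 rose, 2 did not pass the test and 1 was not tested, with a median log2 fold change of −1.15 over the tested genes, beside the 26.4% of all genes that fell. No IGF-binding protein rose at an unadjusted p under 0.05 (0 genes) or in DESeq2 (0 genes). IGFBP6, which prefers IGF2, was at 10.4, 10.9 and 15.8 CPM in control and at 0.857, 0.865 and 0.851 CPM in IRF1shRNA samples. The IRF1shRNA mean was 6.94% of the control mean, with a log2 fold change of −3.85 ± 0.15 (SE) and an edgeR adjusted p of 1.94e-12. IGFBP7 was at 56.4 ± 4.15 CPM and 20.4 ± 1.72 CPM, and IGFBP3, the main carrier in serum, at 209.6 ± 12.5 CPM and 118 ± 8.75 CPM (mean ± SD, n = 3 per group). Their log2 fold changes were −1.47 ± 0.07 and −0.83 ± 0.06 (SE). IGFBP5 fell too but was scarce, at 0.127 ± 0.0476 CPM in control against 0.0146 ± 0.0160 CPM in IRF1shRNA samples. Its counts were 14, 22 and 13 in control and 4, 0 and 2 in IRF1shRNA samples. With halved counts, with thinned libraries or with at least 1 CPM in at least 3 samples, IGFBP5 had no value. IGFBP4 and IGFBP2 did not pass, with log2 fold changes of −0.12 and −0.65, and were named after their values were seen.

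A further 30 receptor tyrosine kinases were counted for comparison, of which 11 fell, 6 rose, 9 did not pass the test and 4 were not tested, at a median log2 fold change of −0.10. The shares over all genes were 26.4% falling and 24.1% rising. MST1R (RON), the closest relative of MET, was at 6.50, 6.84 and 7.71 CPM in control and at 1.25, 2.02 and 2.11 CPM in IRF1shRNA samples, or 25.6% of control. Its log2 fold change of −1.98 ± 0.15 (SE) had an edgeR adjusted p of 4.69e-09. ROR1 and RYK, both receptors of the WNT pathway, fell with log2 fold changes of −0.95 ± 0.06 and −0.72 ± 0.04 (SE), and NTRK3, the neurotrophin-3 receptor, with −0.64 ± 0.07. DDR2, a collagen receptor, and PTK7 were with RYK the most abundant of this list by CPM, and fell with log2 fold changes of −0.28 ± 0.05 and −0.20 ± 0.05 (SE). The 6 that rose, named after their values were seen, were INSR, described above, TYRO3, a relative of AXL (log2 fold change 0.31 ± 0.07, SE), ROS1 (0.91 ± 0.15), ALK (1.68 ± 0.46), ERBB4 (1.87 ± 0.55) and INSRR (2.52 ± 0.36). ALK, ERBB4 and INSRR rose by over 2-fold but were scarce, each at most at 0.486 CPM in any library. Of those that fell, RET, TEK, MUSK and NTRK2, named after their values were seen, were also scarce, under 1 CPM in every library. INSRR, the orphan relative of INSR, was at 0.0649, 0.0816 and 0.0805 CPM in control and 0.373, 0.468 and 0.486 CPM in IRF1shRNA samples, with an edgeR adjusted p of 1.53e-05. ERBB4, the further neuregulin receptor of the ERBB family, had 2, 8 and 7 counts in control and 17, 6 and 35 counts in IRF1shRNA samples, with an edgeR adjusted p of 0.00891.

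Downstream of the receptors, 35 adaptor and cascade genes were tested, of which 16 fell, 8 rose and 11 did not pass, at a median log2 fold change of −0.093 (all genes: 26.4% falling, 24.1% rising). Without control replicate 2, 4 of them rose. PIK3R1, the regulatory subunit of PI3K, went from 104 ± 1.30 CPM to 61.0 ± 3.31 CPM and AKT2 from 131 ± 6.79 CPM to 74.7 ± 3.34 CPM (mean ± SD, n = 3 per group), with log2 fold changes of −0.77 ± 0.05 and −0.81 ± 0.05 (SE). SRC, a kinase recruited by many of these receptors, had a log2 fold change of −0.56 ± 0.05. PLCG2, a phospholipase best known from blood cells, was the only gene of this list to fall by over 2-fold, from 3.70 ± 0.704 CPM to 0.641 ± 0.104 CPM (log2 fold change −2.48 ± 0.16, SE, edgeR adjusted p of 1.13e-09).

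Of 28 negative regulators, 15 fell, 4 rose, 8 did not pass and 1 was not tested, at a median log2 fold change of −0.22, with the same 26.4% and 24.1% over all genes. DUSP4, a phosphatase that inactivates ERK and is itself induced by it, went from 118, 119.8 and 113 CPM to 20.9, 20.5 and 21.1 CPM, or 17.8% of control. Its log2 fold change came to −2.49 ± 0.04 (SE) at an edgeR adjusted p of 1.53e-16. SPRY1, an inhibitor of FGF signaling, fell from 12.2 ± 0.517 CPM to 6.28 ± 0.506 CPM, and PTPRJ, a receptor phosphatase, from 129.6 ± 3.64 CPM to 84.4 ± 2.68 CPM (mean ± SD, n = 3 per group). The 4 genes that rose were SPRED3 (log2 fold change 0.78 ± 0.05, SE), LRIG1 (0.79 ± 0.09), PTPN2 (0.52 ± 0.05) and SPRY3 (0.35 ± 0.12), the last 3 of them named after their values were seen.

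Of 18 transcripts known to respond to ERK, 13 fell, 1 rose and 4 did not pass, at a median log2 fold change of −0.36. Over all genes 50.5% passed, 26.4% falling and 24.1% rising. CCND1, the cyclin D1 that carries growth factor signals into the cell cycle, was at 91.2, 97.2 and 83.2 CPM in control and at 18.8, 16.1 and 16.4 CPM in IRF1shRNA samples, or 18.9% of control. Its log2 fold change came to −2.40 ± 0.07 (SE) at an edgeR adjusted p of 1.66e-14. PHLDA1 fell from 402 ± 12.6 CPM to 181 ± 4.61 CPM (mean ± SD, n = 3 per group). FOSL1, the AP-1 subunit FRA1, and the ephrin receptor EPHA4 had log2 fold changes of −0.70 ± 0.06 and −0.91 ± 0.05 (SE). The gene that rose was FOSB (0.50 ± 0.07), and FOS, EGR3, IER3 and EPHA2 did not pass, all 5 named after their values were seen.

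**Figure D4:**
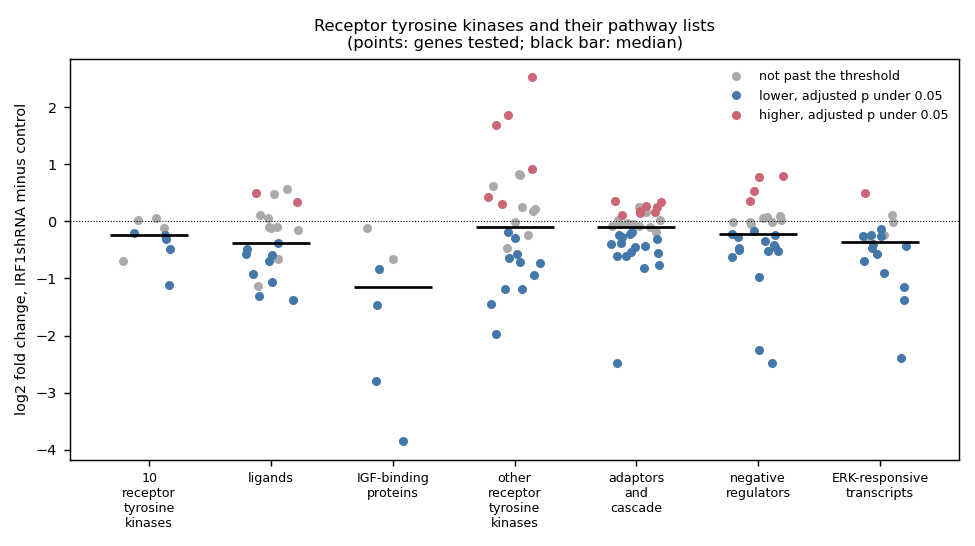
Log2 fold change, IRF1shRNA minus control, of each tested gene in the receptor set and the 6 pathway lists, with blue and red points for genes lower and higher at an adjusted p under 0.05, grey points for the rest and a black bar at each median. The IGF-binding proteins had the lowest median, −1.15, and the other receptor tyrosine kinases spread from −1.98 to 2.52.

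**Figure D5:**
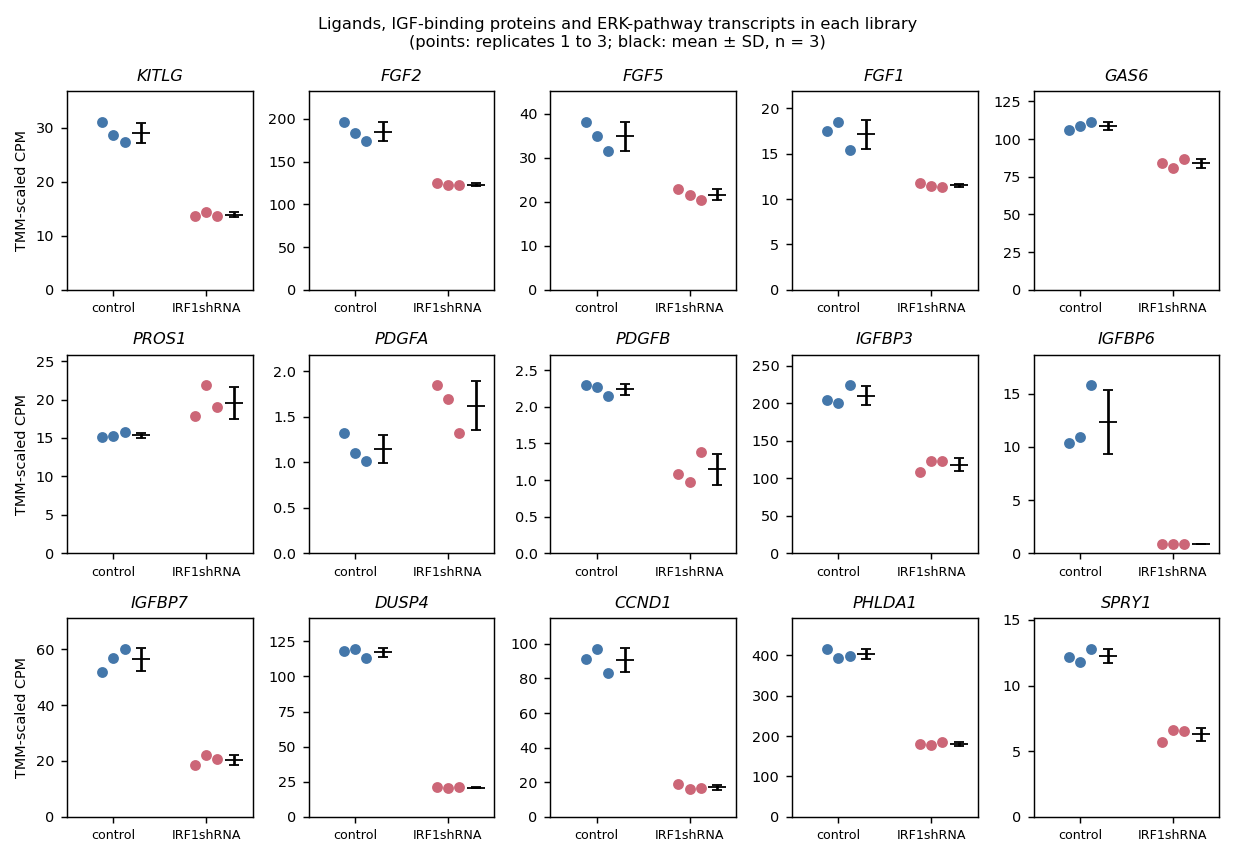
TMM-scaled CPM in each library for 8 ligands, 3 IGF-binding proteins and 4 transcripts regulated by or regulating ERK signaling, from 0 on each vertical axis, with the mean ± SD (n = 3) in black. The means of PROS1 and PDGFA were higher in IRF1shRNA samples (red) than in control samples (blue), those of the other 13 genes were lower, with IGFBP6, DUSP4 and CCND1 furthest apart.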

How the data were processed

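RNA from 3 control and 3 IRF1shRNA samples had been prepared with TruSeq Stranded mRNA kits. The file the authors deposited holds raw counts, not normalized, by gene symbol. The submitters' processing notes name CASAVA 1.8.2, STAR 2.7.9a, featureCounts, DESeq2 1.24.0 and GRCh38.p7, but which annotation was used, and whether counting used strand, is not given in the sources used here. Counts of 2 to 11 were even in 72.1% to 75.2% of cases, as when both mates of a pair are counted. Groups were compared with the quasi-likelihood test of edgeR 4.0.16 in R 4.3.3 (TMM, filterByExpr with a minimum count of 10, group as the only term), adjusted by Benjamini-Hochberg over all 18851 genes tested of 37887, and it was tested on simulated data. The SE is the log2 fold change divided by the square root of F. Alternatives were DESeq2 1.42.0, other scalings and filters, leaving out each sample, the replicate number as a block, halved counts and thinning. Intervals of a count of 0 use 3 counts and cover counting error only, and would be wider if both mates of a pair were counted. Receptors and lists were chosen with earlier results of these data known. Named were the receptors, IRF1, the 4 genes of each list with the smallest adjusted p, ligands whose mean reached 1 CPM and the 3 most abundant other receptors. Lengths are from GENCODE 29 (GRCh38) and promoters from RefSeq (GRCh38.p14). A further promoter motif is not reported here.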

Additional observations from a re-analysis of the deposited data

How the results depend on the processing

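For IRF1 and the receptors, 144 of the recomputed log2 fold changes had the same direction and call, 5 newly passed it and 0 reversed. EGFR passed upward under upper quartile scaling (0.107) and library size only (0.113), which gave 1 receptor that rose under each, while both moved the median of all genes up, to 0.041 and 0.049. PDGFRB passed downward with no filter (−0.69), with libraries thinned to the smallest total (−0.93) and without control replicate 1, and its values without single replicates ran from −0.86 to −0.34. With at least 1 CPM in at least 3 samples PDGFRB had no value, and 3 other receptor tyrosine kinases rose and 7 fell, since fewer genes were tested. Leaving out single samples gave 1 to 2 ligands and 4 to 7 adaptor and cascade genes that rose. With the longest transcript, control levels in CPM per kilobase were 86.2 for AXL, 32.9 for EGFR, 32.6 for FGFR1, 31.6 for MET, 10.3 for ERBB2, 6.85 for IGF1R, 0.441 for PDGFRA and 0.267 for ERBB3, and with library size only 25.4 for EGFR and 14.4 for FGFR1. Whether same-numbered samples were prepared together is not given in the labels. Their deviations from the group means correlated at 0.0149, 0.0215 and −0.0122. With the replicate number as a block, PDGFRA was at −1.12, ERBB2 at −0.48 and PDGFRB at −0.67 on the log2 scale, 5 receptors fell as without it, and no receptor changed its call. The cause of these shifts was not tested unless stated. KIT, with 8 counts in a single library, did not pass the filter.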

Other observations

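Markers of the epithelial state, which were used only to check the cell line, also moved. Each of the 4 basal epithelial markers fell by over 2-fold, which 4.43% of all genes tested did. KRT5 and KRT14 were scarce, under 1 CPM in every library, with 0, 2 and 6 and with 14, 4 and 8 counts in IRF1shRNA samples. KRT17, a basal keratin, was at 2.32, 2.38 and 2.84 CPM in control and at 0.349, 0.216 and 0.194 CPM in IRF1shRNA samples, a log2 fold change of −3.30 ± 0.21 (SE) with an edgeR adjusted p of 5.40e-10. TP63, a transcription factor of basal cells, had a log2 fold change of −1.30 ± 0.19 (SE) and an edgeR adjusted p of 1.55e-05. The 4 markers together summed to 4.67 to 5.62 CPM in control and to 0.913 to 0.973 CPM in IRF1shRNA samples. Of the 6 mesenchymal markers 5 fell, none by over 2-fold, and CDH2 was at a log2 fold change of 0.03. Among the 9 luminal markers 3 fell, 4 did not pass and 2 were not tested. Of those that fell, GATA3 had only 2, 0 and 12 counts in IRF1shRNA samples. For each list the share over all genes was 26.4% falling and 24.1% rising. Whether these markers moved with the receptors for a shared reason was not tested.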
